A study of Rattus norvegicus with 6 samples.

Results

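The genes described here are 10 members of the Notch pathway, namely the ligands Dll4, Dll1, Jag1 and Jag2, the receptors Notch1, Notch2 and Notch3, and the target genes Hes1, Hey1 and Heyl. They were taken from the deposited count table by gene name, together with every unannotated row, a transcript that the authors added, that overlaps a member on the same strand, which gave 10 annotated genes and 3 unannotated rows among 43035 rows (32883 annotated and 10152 unannotated). Dll4 was selected on its difference between the groups compared below, and the others on their place in the same pathway with that comparison known. The members' differences, and the calls that the fit made for them, are therefore a description and not a test of the members. RNA-seq was carried out on cardiomyocytes from the hearts of Sprague-Dawley (SD) rats on postnatal day 1, kept in primary culture in medium with fetal bovine serum. The cells received either scrambled siRNA (si-NC, 3 libraries) or siRNA directed at DYRK1A (si-DYRK1A, 3 libraries), a protein kinase, and RNA was collected 48 h later. No animal carried an engineered allele, and the sources used here do not give the number of rats behind each culture. The labels call the 3 samples of a group biological replicates without saying whether they came from separate cell isolations, so the errors below measure the spread between these samples.

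Notch signalling passes between touching cells. A ligand of the Delta-like or Jagged family on one cell binds a Notch receptor on its neighbour, the receptor is cut first by an ADAM metalloprotease and then by gamma-secretase, and the freed intracellular domain joins the DNA-binding protein RBPJ and Mastermind-like proteins in the nucleus to switch on genes such as those of the Hes and Hey families of repressors. In the heart, Dll4 is best known from endothelial cells, where it restrains vessel sprouting, while Jag1, Notch1 and Notch2 take part in cardiomyocyte proliferation and in the growth of valves and trabeculae.

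The short word TGGGAA, part of a DNA site that RBPJ binds, can be seen before the start of Hes1, the textbook target gene. The 250 bases before the start are given 5′ to 3′ on the gene's strand from RefSeq (build GRCr8), for Hes1 at chr11:84213046-84213295 (minus strand) and, for comparison, for the ligand Dll1 at chr1:64993275-64993524 (minus strand), with TGGGAA or its reverse complement in capitals.
Hes1: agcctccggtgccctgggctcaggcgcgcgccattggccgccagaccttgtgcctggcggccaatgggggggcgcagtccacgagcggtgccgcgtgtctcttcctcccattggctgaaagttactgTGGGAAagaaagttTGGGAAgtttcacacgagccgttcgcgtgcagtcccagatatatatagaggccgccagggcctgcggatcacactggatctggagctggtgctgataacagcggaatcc
Dll1: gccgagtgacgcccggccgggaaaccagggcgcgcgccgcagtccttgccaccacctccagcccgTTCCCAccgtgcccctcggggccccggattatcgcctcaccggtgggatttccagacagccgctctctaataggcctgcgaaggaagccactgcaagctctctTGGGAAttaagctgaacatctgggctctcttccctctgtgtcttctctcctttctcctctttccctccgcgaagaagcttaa
Hes1 held TGGGAA on the gene's strand at 123 and 109 bases before the start. Dll1 held the word once on the gene's strand, 82 bases before the start, and once on the other strand, 185 bases before it. Of 10 members, 8 had an entry in the promoter table, with 9 windows of 300 bases (250 before and 50 after the start), and Dll4 and Hey1 had none. Notch3 held TGGGAA 43 bases after its start, and the windows of Jag1, Jag2, Notch1, Notch2 and Heyl did not hold these letters. With both strands searched, TGGGAA occurred in 25.7% of all 33469 windows of this length, and 2 or more copies occurred in 3.85%. The longer word GTGGGAA, which overlaps TGGGAA, was in the windows of Hes1 and Dll1 and in 6.29% of all windows. In Hes1 it took in only the copy at 123 bases, not that at 109, and in Dll1 only the copy on the other strand. Other forms of the RBPJ site were not searched, so a site with other letters is left unmarked in the printed sequences. Such matches describe the sequence and do not show binding.

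The libraries held 10325074 to 11921772 counts in si-NC and 10703229 to 11723974 counts in si-DYRK1A. The count of the targeted gene did not check the labels. Dyrk1a had 3, 0 and 1 counts in si-NC and 2, 1 and 0 counts in si-DYRK1A, and the unannotated row over it was at 77.7 ± 3.22 and 82.4 ± 2.70 CPM (SD, n = 3 each), with a log2 fold change of 0.08 (SE 0.0575, edgeR adjusted p = 0.374). Directions below therefore rest on the libraries as labelled si-DYRK1A. Cardiomyocyte genes were abundant, with Actc1 at 9976 and Nppa at 7557 CPM on average in si-NC. The annotated rows of Tnni3, Myh6, Myh7 and Myl2 were at 0 counts in every library, which does not show that these genes were silent. Of 6 listed cardiomyocyte rows under 10 counts in every library, 5 lay under an unannotated row with 10 or more counts. Genes of other heart cells were abundant as well, with the fibroblast collagen gene Col1a1 at 14341 CPM. CPM here is a count scaled to the size of its library by the TMM method of edgeR. All log2 fold changes compare si-DYRK1A with si-NC, and SE and 95% confidence intervals come from the edgeR quasi-likelihood fit over 15513 rows that passed the filter on low counts. Over those rows the median log2 fold change was 0.00 and the median size of the log2 fold change, regardless of sign, was 0.18.

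Among the members, RNA levels were highest for Notch2 and Notch1 of the receptors, Jag1 of the ligands and Hes1 of the targets, while Dll4 was a rare transcript. Pathway genes outside the member list are not part of this order, and RNA levels do not show signalling activity. In order of the deposited FPKM, which is a level per length of transcript, Hes1 came first with 44.3 ± 0.738 FPKM in si-NC (SD, n = 3), followed by Notch2 with 27.8 ± 0.997, Jag1 with 18.9 ± 1.34 and Notch1 with 9.45 ± 0.897. These 4 levels did not overlap between neighbours in the order in either group. Next came the unannotated row over Heyl (3.19 ± 0.336 FPKM), Hey1 (2.99 ± 0.488 FPKM) and the unannotated row over Notch3 (2.98 ± 0.269 FPKM), whose si-NC libraries overlapped from neighbour to neighbour. Dll1 followed at 1.32 ± 0.090 FPKM, then Dll4 at 0.948 ± 0.063 FPKM and the annotated row of Heyl at 0.247 ± 0.163 FPKM. In si-DYRK1A, Dll4 was at 0.315 ± 0.151 FPKM and its libraries overlapped those of Heyl (0.408 ± 0.075 FPKM), the neighbour from which it was separate in si-NC. Jag2 and Notch3 were listed at 0 in all 6 libraries, where an unannotated row covers each gene.

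**Figure D1:**
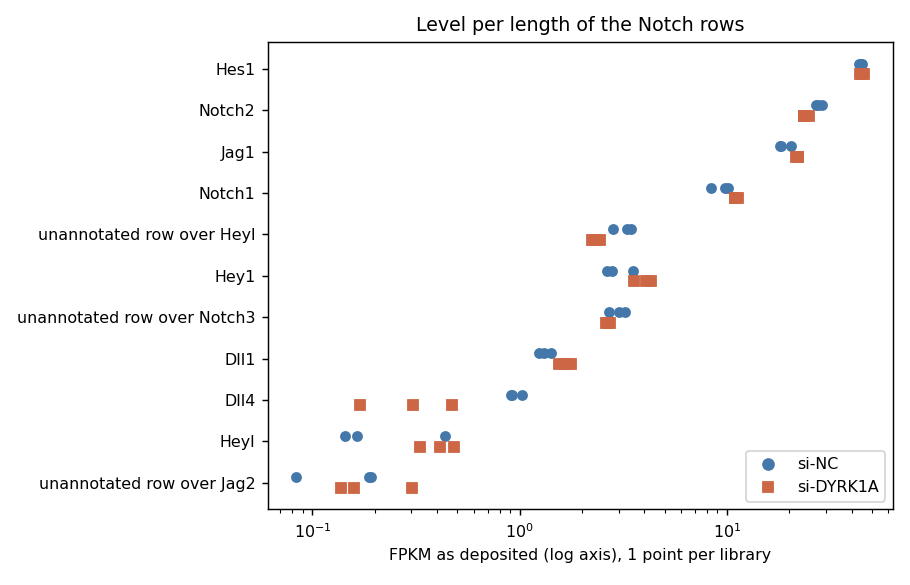
Deposited FPKM of the Notch rows on a log axis, with 1 point per library (circles si-NC, squares si-DYRK1A) and rows in order of the si-NC mean. Hes1, Notch2, Jag1 and Notch1 lie on top with no overlap between neighbours, and Dll4 is the row whose groups lie farthest apart. The annotated rows of Jag2 and Notch3, at 0 in every library, cannot be drawn on a log axis and are left out.

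Of 13 member rows, 11 passed the filter on low counts and Jag2 and Notch3 did not. At an adjusted p below 0.05, the edgeR fit called 5 of the 11 tested rows, where it called 15.2% of all rows tested. Of these, 2 were higher in si-DYRK1A (Jag1 and Notch1, against 8.03% of all rows) and 3 were lower (Dll4, Notch2 and the unannotated row over Heyl, against 7.19% of all rows). The si-NC and si-DYRK1A libraries did not overlap in 7 of the 11 tested rows, against 31.5% of all rows tested. Since the members were chosen with this comparison known, nothing is read from these counts. The median log2 fold change of the 11 rows was 0.21.

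**Figure D2:**
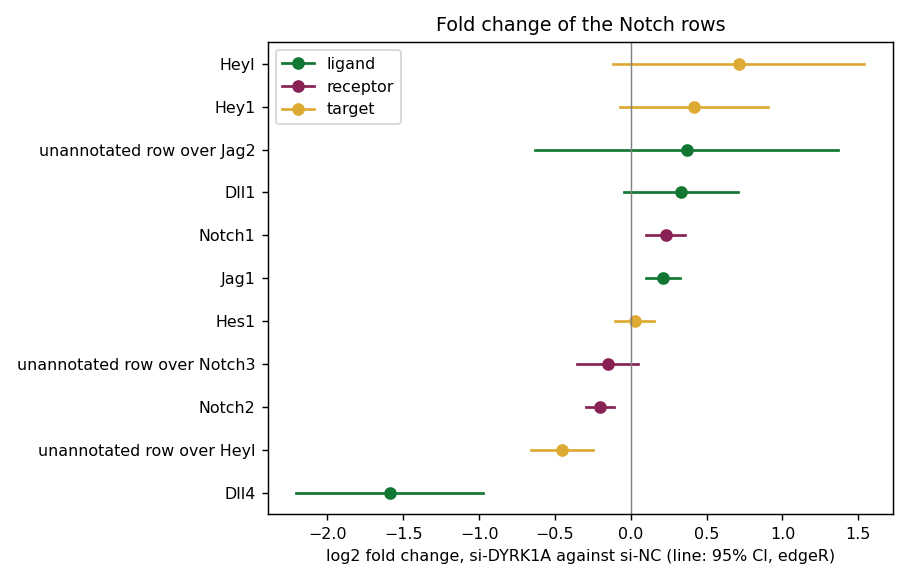
Log2 fold change of each tested Notch row, si-DYRK1A against si-NC, with the 95% confidence interval from edgeR as a line, coloured by role. Dll4 lies at -1.59, apart from all other rows, which lie between -0.45 for the unannotated row over Heyl and 0.71 for the annotated row of Heyl.

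Dll4 (ENSRNOG00000014011, Rnor_6.0 chr3:111135021-111145986, plus strand) encodes a Delta-like transmembrane ligand. Its counts were 44, 49 and 56 in si-NC replicates 1, 2 and 3, and 16, 23 and 9 in si-DYRK1A replicates 1, 2 and 3. Scaled to the library, this was 4.22, 4.14 and 4.68 CPM against 1.41, 2.17 and 0.779 CPM. All 3 si-DYRK1A libraries lay below all 3 si-NC libraries, and si-DYRK1A replicate 3 was the lowest. The mean went from 4.35 ± 0.292 to 1.45 ± 0.694 CPM (SD, n = 3 each), so that si-DYRK1A had 33.2% of the si-NC level on the scale of the fit. The log2 fold change was -1.59 (SE 0.296, 95% confidence interval -2.20 to -0.97), and 27 of the 15513 rows tested had a log2 fold change at or below that value. With each library left out in turn it lay between -1.98 and -1.28. Exact 95% Poisson intervals, which cover counting error only, reached from 32.0 to 59.1 for the si-NC library with 44 counts and from 14.6 to 34.5 for the si-DYRK1A library with 23 counts, so that these nearest libraries overlapped in counting error. The pooled SD of log2 CPM within groups was 0.46 for Dll4, against 0.18 for Hey1, which had 26 to 47 counts per library, and 0.03 for Hes1.

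Dll1 (ENSRNOG00000059984, chr1:57318708-57327379, minus strand), a second Delta-like ligand that keeps progenitor cells from differentiating in many tissues, had a similar depth but a difference of the other sign. Its level was 5.27, 4.82 and 4.60 CPM in si-NC and 6.60, 5.74 and 6.14 CPM in si-DYRK1A, and the groups did not overlap. The log2 fold change was 0.33 (SE 0.181, 95% confidence interval -0.04 to 0.71), an interval that includes 0. Per length, Dll4 had 0.645, 0.693 and 0.821 times the FPKM of Dll1 in the si-NC libraries and 0.172, 0.304 and 0.102 times in the si-DYRK1A libraries.

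Jag1 (ENSRNOG00000007443, chr3:130079361-130114770, minus strand) encodes the Jagged ligand mutated in Alagille syndrome, which affects the heart and liver. It had the highest level per length of the member ligands, and was at 103.0, 114.4 and 100.9 CPM in si-NC and 123.9, 120.8 and 124.4 CPM in si-DYRK1A. The groups did not overlap, and the si-DYRK1A libraries lay closer together (SD 1.93 CPM) than the si-NC libraries (SD 7.27 CPM). The log2 fold change was 0.21 (SE 0.054, 95% confidence interval 0.10 to 0.33). Jag1 was no longer called when si-NC replicate 1 (0.19) or si-NC replicate 3 (0.17) was left out.

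Jag2 (ENSRNOG00000013927, chr6:137711155-137733026, minus strand), the other Jagged ligand, had 0 counts in every library. An unannotated row (chr6:137711155-137745111, minus strand) covers 100% of the gene and also the annotated genes Nudt14 and AABR07065617.1, so its counts cannot be assigned to Jag2 alone. It had 10, 11 and 5 counts in si-NC and 9, 16 and 8 in si-DYRK1A, which overlapped, and its log2 fold change of 0.37 had an SE of 0.480. A difference could not be detected at this depth.

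Set against each other per length among the 4 member ligands, with the unannotated row standing for Jag2, Jag1 made up 87.9%, 89.5% and 88.5% of the summed ligand FPKM in si-NC and 90.8%, 90.3% and 91.8% in si-DYRK1A. The share of Dll4 was 4.40%, 3.96% and 5.02% in si-NC and 1.26%, 1.98% and 0.703% in si-DYRK1A. The groups did not overlap in the share of either gene. The direction for Jag1 depends on which ligands are summed: with Dner, a ligand outside the member list described below, the share of Jag1 was 64.8%, 64.0% and 62.7% in si-NC and 60.8%, 61.3% and 59.4% in si-DYRK1A, now lower in si-DYRK1A, while that of Dll4 was still lower there, at 3.25%, 2.83% and 3.56% against 0.843%, 1.34% and 0.455%. Jag1 held the largest share on either sum in every library.

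**Figure D3:**
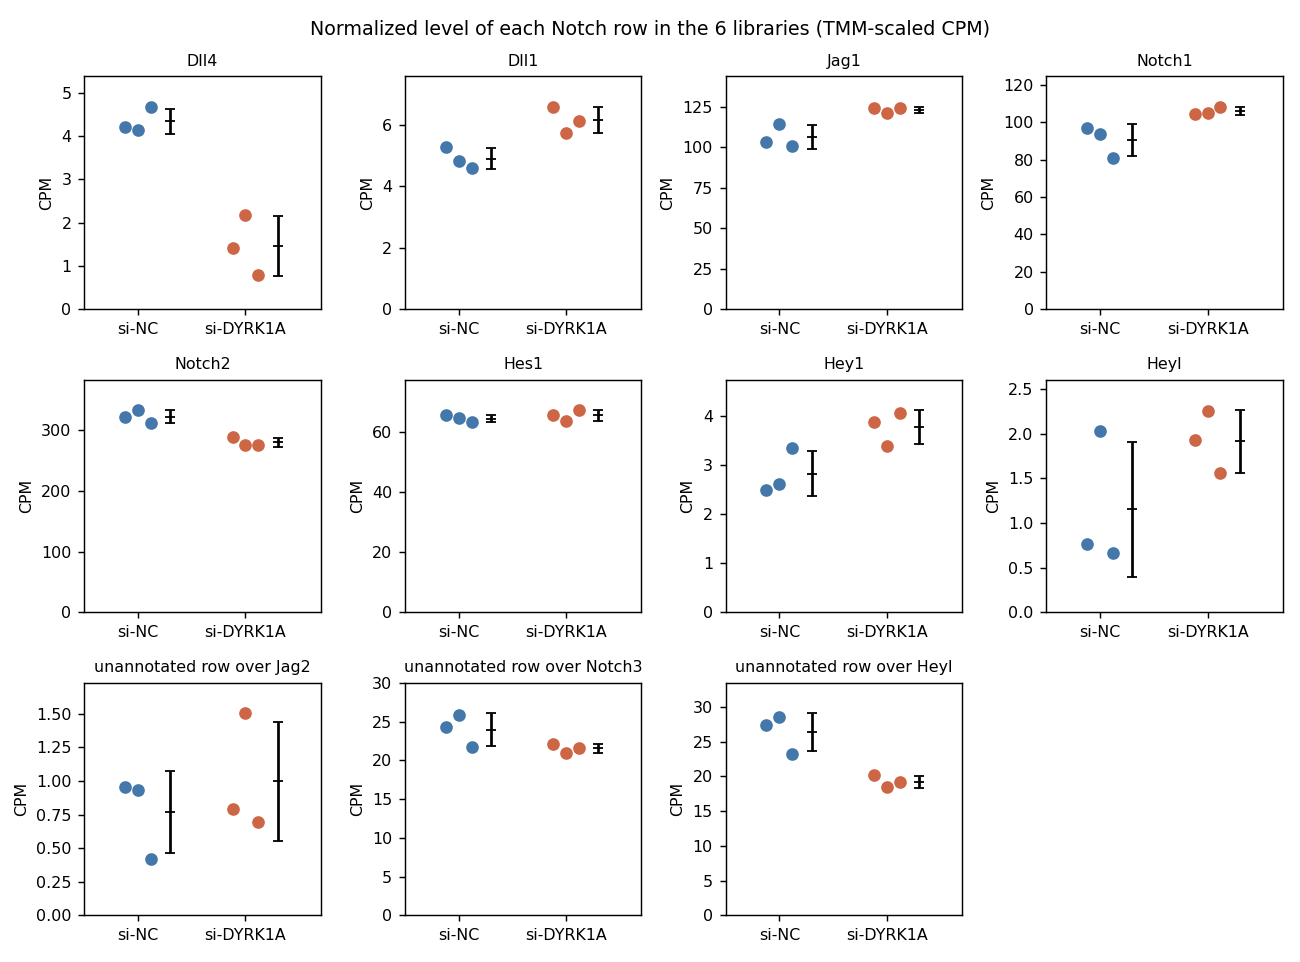
TMM-scaled CPM of the 11 tested Notch rows in each library (points, si-NC left and si-DYRK1A right in each panel) with the mean and SD of each group (black, n = 3). Dll4, Notch2 and the unannotated row over Heyl are lower in every si-DYRK1A library than in any si-NC library, Dll1, Jag1, Notch1 and Hey1 are higher, and the other rows overlap.

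Among the receptors, Notch1 was higher and Notch2 lower in si-DYRK1A, each by a small amount. Notch1 (ENSRNOG00000019322, chr3:3905453-3951025, minus strand), the receptor needed for valve and trabecular development, was at 97.0, 93.9 and 80.7 CPM in si-NC and 104.7, 105.1 and 108.4 CPM in si-DYRK1A. The groups did not overlap, si-NC replicate 3 was the lowest, and the log2 fold change was 0.23 (SE 0.061, 95% confidence interval 0.10 to 0.36). Notch1 was no longer called without si-NC replicate 3, where the log2 fold change was 0.15, without si-DYRK1A replicate 2 (0.24) or without si-DYRK1A replicate 3 (0.21).

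Notch2 (ENSRNOG00000018835, chr2:200187179-200320215, plus strand), like Jag1 a gene of Alagille syndrome, was the receptor with the highest level per length. It was at 322.8, 334.0 and 311.9 CPM in si-NC and 289.6, 275.8 and 275.2 CPM in si-DYRK1A. All si-DYRK1A libraries lay below all si-NC libraries, with a log2 fold change of -0.20 (SE 0.044, 95% confidence interval -0.30 to -0.11). The ratio of Notch2 to Notch1 FPKM was 2.74, 2.93 and 3.18 in si-NC and 2.28, 2.16 and 2.09 in si-DYRK1A, again with no overlap.

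Notch3 (ENSRNOG00000004346, chr7:14138495-14189688, minus strand), the receptor of vascular smooth muscle and pericytes, had 0 counts in its annotated row in every library. The unannotated row that covers 100% of it (chr7:14137787-14189688, minus strand) also spans the short annotated gene AABR07055864.1, and the deposited description gives it Notch, ankyrin and EGF domains. It was at 24.4, 25.9 and 21.7 CPM in si-NC and 22.1, 21.0 and 21.5 CPM in si-DYRK1A. These groups overlapped, and the log2 fold change was -0.15 (SE 0.096, 95% confidence interval -0.35 to 0.05). With this row standing for Notch3, Notch2 held 67.8% to 70.7% of the summed receptor FPKM in si-NC and 62.8% to 64.6% in si-DYRK1A, and Notch1 held 22.2% to 24.7% and 28.3% to 30.0%. Notch3 kept 7.11% to 7.72% in si-NC and 7.01% to 7.13% in si-DYRK1A, so the groups overlapped only in its share among the 3 receptors.

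Of the target genes, Hes1 (ENSRNOG00000001720, chr11:74312806-74315248, minus strand), whose promoter is printed above, showed the smallest difference of all tested members. It was at 65.5, 64.6 and 63.2 CPM in si-NC and 65.7, 63.7 and 67.2 CPM in si-DYRK1A. The libraries of both groups were intermingled, and the log2 fold change was 0.02 (SE 0.061, 95% confidence interval -0.10 to 0.15). The whole interval lies above that of Dll4, but Dll4 was selected on its difference, so nothing is read from this comparison.

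Hey1 (ENSRNOG00000011593, chr2:95320283-95322696, plus strand), a repressor downstream of Notch in endothelium and atrial myocardium, had 26, 31 and 40 counts in si-NC and 44, 36 and 47 in si-DYRK1A. Scaled to the library, it was at 2.49, 2.62 and 3.35 CPM in si-NC and 3.87, 3.39 and 4.07 CPM in si-DYRK1A. The groups did not overlap, although si-NC replicate 3 and si-DYRK1A replicate 2 nearly met, and the log2 fold change of 0.42 (SE 0.234) had a 95% confidence interval of -0.07 to 0.90.

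Heyl (ENSRNOG00000015318, chr5:140923914-140940905, plus strand), another repressor of the Hey family with a known place in vascular smooth muscle, is split over 2 rows that differ in sign. The annotated row had 8, 24 and 8 counts in si-NC and 22, 24 and 18 in si-DYRK1A, so that si-NC replicate 2 lay with the si-DYRK1A libraries. Its log2 fold change was 0.71 (SE 0.399, 95% confidence interval -0.12 to 1.54), and without si-NC replicate 2 it was 1.40 and called. The unannotated row (chr5:140928360-140939506, plus strand) covers 65.6% of the gene's span, touches no other annotated gene, carries the Hairy Orange domain in the deposited description and held 93.7% of the counts of both rows. It was at 27.3, 28.5 and 23.2 CPM in si-NC and 20.1, 18.5 and 19.1 CPM in si-DYRK1A, with no overlap and a log2 fold change of -0.45 (SE 0.099, 95% confidence interval -0.66 to -0.25). With both rows summed, the locus was at 27.5 ± 3.35 CPM in si-NC and 21.2 ± 0.794 CPM in si-DYRK1A (SD, n = 3 each), and the log2 fold change was -0.38. The sign for Heyl thus depends on which row is taken, and the larger share of counts gives the lower level in si-DYRK1A.

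The rest of the pathway was taken as 46 further symbols with a known role in Notch signalling, of which 44 were found, in 45 rows, since Rbpj has 2. Of these rows 24 were tested, 4 were higher in si-DYRK1A, 3 were lower and 17 did not pass the edgeR threshold, where over all rows tested 8.03% were called higher and 7.19% lower. The median log2 fold change was -0.08, against 0.00 over all rows. In 18 of the 45 rows no library reached 10 counts, and 11 of these 18 lay under an unannotated row with 10 or more counts, so the annotated rows show the pathway only in part.

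The fall in Notch4 (chr20:4329811-4353785, plus strand), the receptor found mainly in endothelial cells, was the largest called among these genes. Notch4 was at 17.1, 18.7 and 15.6 CPM in si-NC and 7.56, 13.4 and 9.00 CPM in si-DYRK1A. All si-DYRK1A libraries lay below all si-NC libraries, and the log2 fold change was -0.78 (SE 0.173, edgeR adjusted p = 0.0070). Among the ligands, Dner, a neuronal transmembrane protein described as a Notch ligand, rose with a log2 fold change of 0.55 (SE 0.0864, edgeR adjusted p = 0.00011), from 28.3, 34.7 and 31.9 to 45.8, 42.9 and 50.3 CPM. Dlk1, which carries EGF repeats but lacks the domain that activates receptors, had a log2 fold change of -0.24 (edgeR adjusted p = 0.390).

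Of the 6 proteases tested that cut ligands or receptors, 1 rose and 1 fell with edgeR, against 8.03% and 7.19% of all rows. Adam17, a metalloprotease that sheds many surface proteins, fell with a log2 fold change of -0.22 (SE 0.0461, edgeR adjusted p = 0.0019), from 195.7 ± 2.70 to 167.8 ± 6.07 CPM (SD, n = 3 each). Psen2, one of the alternative catalytic subunits of gamma-secretase, rose by 0.20 on the log2 scale (SE 0.0494, edgeR adjusted p = 0.0072). Without si-NC replicate 1 the adjusted p of Psen2 was 0.059. Of the 3 tested glycosyltransferase genes 0 passed the threshold with edgeR or DESeq2, and 0 had an unadjusted p below 0.05. Lfng, the Fringe enzyme that biases receptors toward Delta-like ligands, had a log2 fold change of -0.24 (edgeR adjusted p = 0.193).

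Genes of ligand and receptor trafficking gave 2 rises and 1 fall among 6 tested with edgeR, against 8.03% and 7.19% of all rows. DESeq2 called 1 rise and 1 fall, and limma on log2(FPKM + 1) called 0 rises and 1 fall. Numbl, an endocytic adaptor related to Numb, which antagonizes Notch, fell with a log2 fold change of -0.37 (SE 0.0684, edgeR adjusted p = 0.00067), from 78.8 ± 7.47 to 61.0 ± 1.40 CPM (SD, n = 3 each). The ubiquitin ligase genes Dtx3l, of the Deltex family, and Neurl1b, of the Neuralized family that acts on ligands, rose by 0.61 (SE 0.152, edgeR adjusted p = 0.032) and 0.34 (SE 0.112, edgeR adjusted p = 0.043) on the log2 scale. Both calls were fragile. Dtx3l was lost without si-NC replicate 3 (edgeR adjusted p = 0.158) or without any of si-DYRK1A replicates 1, 2 and 3 (0.090, 0.078 and 0.098), and Neurl1b was lost in 5 of the 6 fits that left out a library, with edgeR adjusted p from 0.107 without si-DYRK1A replicate 1 to 0.209 without si-NC replicate 3.

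In the nucleus, the annotated rows of Rbpj were too low to test. The unannotated row over it was at 69.8 CPM in si-NC and 68.8 CPM in si-DYRK1A on average, with a log2 fold change of -0.02 (SE 0.061, edgeR adjusted p = 0.871). Of the 3 tested genes of the nuclear complex, 0 passed the threshold with edgeR or DESeq2, and 0 had an unadjusted p below 0.05. Over the 22 unannotated rows that overlap pathway genes, 13 were tested, and edgeR called 0 higher and 1 lower. Over all rows tested, 8.03% were called higher and 7.19% lower. The called row lies over Kat2b, an acetyltransferase that co-activates transcription, with a log2 fold change of -0.32 (SE 0.0801, edgeR adjusted p = 0.0081).

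Of the other targets, 3 were tested and 0 passed the threshold with edgeR or DESeq2, while 1, Nrarp, had an unadjusted p below 0.05. Hey2, the ventricular member of the Hey family, was at 19.4 ± 0.599 CPM in si-NC and 21.8 ± 2.53 CPM in si-DYRK1A (SD, n = 3 each), with a log2 fold change of 0.17 (edgeR adjusted p = 0.310). Nrarp, a feedback inhibitor that is itself switched on by Notch, had a log2 fold change of 0.31 (SE 0.137, edgeR adjusted p = 0.139), and Hes7, the oscillating repressor of somite formation, one of -0.23 (edgeR adjusted p = 0.516). With Hes1, Hey1 and Heyl included, the 6 target genes with a tested annotated row had log2 fold changes from -0.23 for Hes7 to 0.71 for Heyl, where the Heyl locus summed over both of its rows was at -0.38, below Hes7.

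Because Dll4 and Notch4 are known from endothelial cells, genes of that cell type were compared in the same libraries. Of 20 endothelial symbols 18 were found and 14 tested, of which 5 fell, 0 rose and 9 did not pass the edgeR threshold, where over all rows tested 7.19% were called lower and 8.03% higher. At an unadjusted p below 0.05, 8 were lower and 0 higher, and DESeq2 called 5 lower and 0 higher. Their median log2 fold change was -0.40, against 0.00 over all rows. Flt1, Cldn5 and Ecscr were at 0 in every library, and Pecam1 and Robo4 were not matched. The fallen genes were Tek, the angiopoietin receptor (log2 fold change -0.75, SE 0.0742, edgeR adjusted p = 3.5e-07), Flt4, the receptor for lymphatic growth factors (-0.60, SE 0.0615, adjusted p = 5.5e-07), and, named after their values were seen, Tie1 (-0.43, adjusted p = 0.0013), Mmrn2 (-0.37, adjusted p = 0.013) and Cdh5, the cadherin of endothelial junctions (-0.31, adjusted p = 0.013). Kdr, the main receptor for vascular endothelial growth factor, was at 37.1 ± 4.80 and 36.7 ± 2.62 CPM (SD, n = 3 each), with a log2 fold change of -0.01 (95% confidence interval -0.20 to 0.18). Of the 14 genes, 11 had a log2 fold change below 0 and 3 above it. The 3 were Erg (0.25), Esam (0.19) and Emcn (0.03), also named after their values were seen, and none was called. For Erg and Esam every si-DYRK1A library lay above every si-NC library. Without si-DYRK1A replicate 3, 3 of the 14 genes were called instead of 5.

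The summed level of the 14 endothelial genes was 320.9 to 349.6 CPM in si-NC and 257.9 to 268.0 CPM in si-DYRK1A, without overlap. Flt4, from 86.3 ± 4.73 to 56.8 ± 1.26 CPM, and Tek, from 50.2 ± 0.949 to 29.8 ± 1.17 CPM (SD, n = 3 each), weigh most in this difference. The sum therefore does not stand for every endothelial gene. In bulk libraries, fewer cells of a type and less RNA per cell cannot be told apart. As a percentage of this sum, Dll4 was at 1.21, 1.20 and 1.46 in si-NC and 0.544, 0.808 and 0.302 in si-DYRK1A, so that its groups did not overlap on this scale either. Notch4 was at 4.88, 5.42 and 4.85 percent of the sum in si-NC and 2.92, 4.99 and 3.49 percent in si-DYRK1A, and these overlapped. The part of the endothelial level in the differences of Dll4 and Notch4 was not tested.

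**Figure D4:**
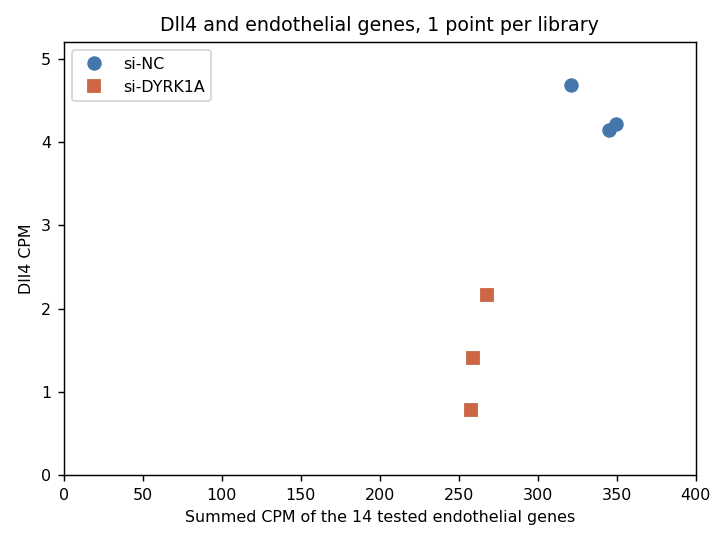
Dll4 in CPM (y axis) against the summed CPM of the 14 tested endothelial genes (x axis), with 1 point per library. The si-DYRK1A libraries (squares) lie below and to the left of the si-NC libraries (circles), at 0.779 to 2.17 CPM of Dll4 against 4.14 to 4.68 CPM.

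Genes of arterial and sprouting (tip) endothelial cells, the cells in which Dll4 is best known, gave calls of the other sign. Of 11 genes 9 were tested, and 5 rose and 0 fell by edgeR and by DESeq2 (6 and 0 at an unadjusted p below 0.05). These calls, too, stand against 8.03% higher and 7.19% lower over all rows. Their median log2 fold change was 0.28, and their summed level, with the 2 untested genes included, was 460.5 to 493.8 CPM in si-NC and 595.0 to 599.0 CPM in si-DYRK1A. Efnb2, the arterial ephrin ligand, rose by 0.28 (SE 0.0495, edgeR adjusted p = 0.00034) and Gja5, the connexin of arteries and of the atrial and conducting myocardium, by 0.50 (SE 0.0501, edgeR adjusted p = 3.7e-07) on the log2 scale. Esm1 and Angpt2, both secreted by tip cells, and the chemokine receptor Cxcr4, all named after their values were seen, rose by 1.03 (SE 0.0791, edgeR adjusted p = 9.5e-09), 0.83 (SE 0.0843, edgeR adjusted p = 5.2e-07) and 0.49 (SE 0.090, edgeR adjusted p = 0.00061). Unc5b had a log2 fold change of 0.04 (edgeR adjusted p = 0.809), and Nrp1 was at 0 in every library. Of the 9 tested genes, 7 had a log2 fold change above 0 and 2 below it. The lowest was Gja4, named after its value was seen, at -0.27 (edgeR adjusted p = 0.353). For Gja4 every si-DYRK1A library lay below every si-NC library. Several of these genes, Gja5 among them, are also expressed outside the endothelium.

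Other cell types were read in the same way, with calls by edgeR and sums over every annotated row of a list. Some annotated rows had under 10 counts in every library. An unannotated row with 10 or more counts lay over 5 of 6 such cardiomyocyte rows, 3 of 5 mural, 2 of 2 fibroblast and 0 of 1 macrophage rows. A level of 0 below therefore need not mean a silent gene, and the sums show these cell types only in part. Over all rows tested, 8.03% were called higher and 7.19% lower. Of 5 mural cell genes tested 0 passed the threshold with edgeR or DESeq2 (2 had an unadjusted edgeR p below 0.05, 1 higher and 1 lower). Their log2 fold changes ran from -0.66 to 0.29, with -0.01, 0.02 and 0.13 for Cnn1, Mcam and Cspg4. The summed levels were 1195 to 1251 CPM in si-NC and 1237 to 1251 CPM in si-DYRK1A, and Abcc9, Myh11 and Acta2 were at 0. Of 6 cardiomyocyte genes tested 3 rose, Actc1 (log2 fold change 0.13), Nppa (0.37) and Actn2 (0.31, named after its value was seen), Myl3 had a log2 fold change of -0.11, and the summed levels were 22410 to 23365 CPM in si-NC and 25632 to 26506 CPM in si-DYRK1A. Tnni3, Myh6, Myh7 and Myl2 were at 0. Of 7 fibroblast genes Lum (0.59) and Postn (1.10) rose, both named after their values were seen, the log2 fold changes of Col1a1, Col3a1 and Fn1 were -0.37, 0.02 and -0.07, the sums were 22107 to 26829 CPM in si-NC and 20917 to 21674 CPM in si-DYRK1A, and Pdgfra was at 0; DESeq2 also called 1 of these genes, Col1a1, as lower. Of 8 macrophage genes Lyz2 (0.41) and Cd163 (0.87, named after its value was seen) rose, and Csf1r and Mrc1 had log2 fold changes of -0.13 and -0.19. Of the 8, 3 had a log2 fold change above 0 and 5 below it, with a median of -0.16 and a lowest value of -0.54. At an unadjusted edgeR p below 0.05, 2 were higher and 3 lower. The sums were 282.3 to 295.9 CPM in si-NC and 281.2 to 324.5 CPM in si-DYRK1A, and Cd68 was at 0. The part of these shifts in the members' differences was not tested.

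**Figure D5:**
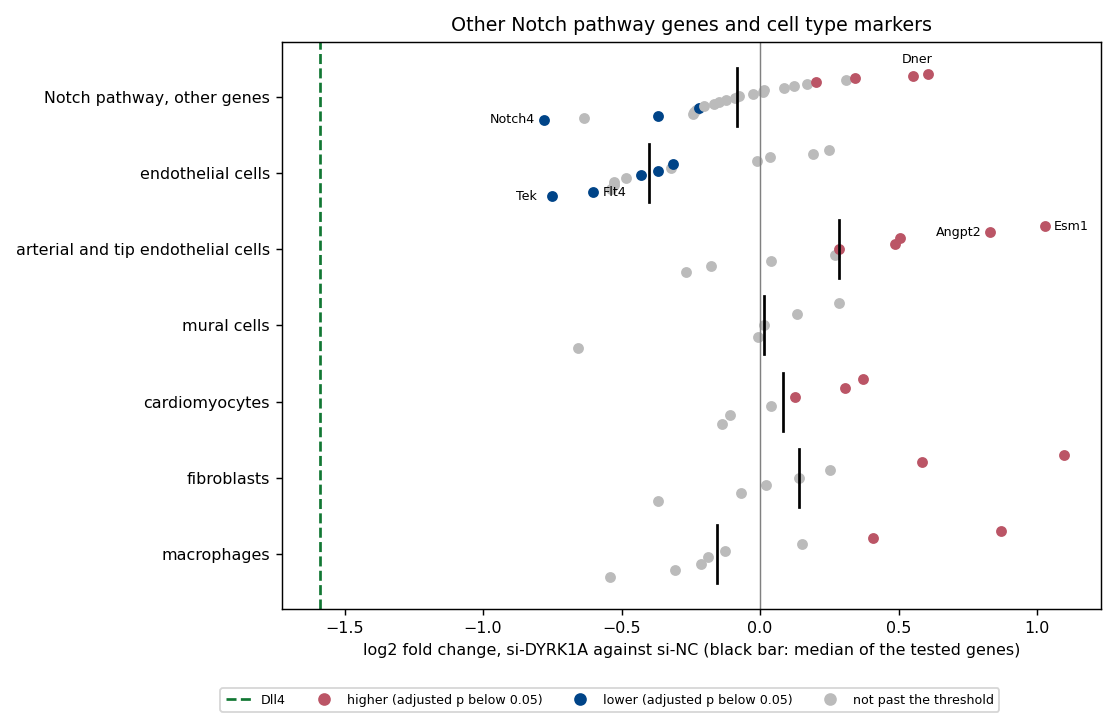
Log2 fold change (x axis) of the tested genes of the Notch pathway and of each cell type list (rows), si-DYRK1A against si-NC, coloured by the edgeR call, with a black bar at the median of each list. The endothelial median lies at -0.40 and the arterial and tip cell median at 0.28, and the dashed line marks Dll4 at -1.59, below every gene drawn.

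Among the genes whose pattern over the 6 libraries was most like that of Dll4 were Lgals4, AABR07068198.2, Mmp19 and Lrg1. Likeness was measured as the root-mean-square difference of log2 CPM centred on each gene's mean, over 9628 annotated candidates, and came to 0.23 for Lgals4, 0.26 for AABR07068198.2 and 0.30 for both Mmp19 and Lrg1. Mmp19, a matrix metalloproteinase, was at 5.75, 4.06 and 4.26 CPM in si-NC and 2.29, 2.26 and 1.21 CPM in si-DYRK1A, where replicate 3 was the lowest, as for Dll4. Lgals4 had 3 to 16 counts per library, Lrg1 4 to 18 and AABR07068198.2 5 to 40, so their places rest on few counts.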

How the data were processed

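RNA-seq of 6 libraries, 3 si-NC and 3 si-DYRK1A grouped by their titles, was used, and 48 h after transfection is the only time point. Per the study's methods, the authors used a NEBNext kit and aligned the read pairs by HISAT2 against the rat build Rnor_6.0, whereas the labels give a TruSeq kit and the submitters' processing notes name Bowtie 0.12.2 and mm8. The table carries rat gene identifiers, and its positions were taken as Rnor_6.0 after the methods, with no genome to check them against. Not given in the sources used here are the counting tool, the annotation release and whether strand was used. The authors deposited raw counts per row and FPKM values, and the deposited FPKM are counts divided by length and scaled by 1 constant per library. No column was left unmatched, and 10353 rows without a gene name were kept.

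Counts were tested with edgeR 4.0.16 in R 4.3.3 (TMM, filterByExpr with a minimum count of 10 in 3 libraries and a total of 15, robust quasi-likelihood test, Benjamini-Hochberg adjustment over 15513 rows, threshold 0.05, two-sided). The libraries held 10325074 to 11921772 counts, 3 counts equal 0.251 to 0.288 CPM, and intervals on counts cover counting error only. Replicates of a group differed beyond sampling noise (chi-square per degree of freedom 2.65 to 6.48). The script was tested on simulated counts. Alternatives were DESeq2 1.42.0, RLE or library size only, other filters, each library left out, a block for the replicate number, limma 3.58.1 on log2(FPKM + 1) or log2(FPKM + 0.1), and 3 chosen after seeing the data, which add Dner to the ligand sum, ignore other annotated genes when a gene is summed with its unannotated row, or include unannotated rows over pathway genes. Promoter windows are from RefSeq (GRCr8).

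Members, gene lists and tests were chosen with earlier results of these data known. Genes named are the members, every called pathway gene, the 3 tested genes of highest mean CPM per cell type list and the 5 genes most like Dll4 (mean log2 CPM of at least 0); others were added where a role or a count called for them after their values were seen. Some single genes are not reported here.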

Additional observations from a re-analysis of the deposited data

How the results depend on the processing

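The count of rows called was within 1.5 times the main count in every edgeR and DESeq2 fit (1699 rows with DESeq2, 2269 with the replicate block, and 1614 to 2210 with each library left out) and fell in limma to 1197 with log2(FPKM + 1), 1162 with log2(FPKM + 0.1) and 667 without the filter on FPKM. Of the member rows, 3 to 6 were called with each library left out, the 3 without si-NC replicate 3, and limma called 2, 0 and 0 of 9, 9 and 11 rows in the same order (6 of them at an unadjusted p below 0.05 each time). For pathway genes the counts were 5 to 8 with a library left out and 3, 3 and 1 in limma, and for endothelial genes 3 to 6, the 3 without si-DYRK1A replicate 3, and 3, 3 and 2 in limma. With unannotated rows included, 8 of 37 pathway rows were called. The log2 fold change of Dll4 was -0.57 on log2(FPKM + 1), with or without the filter, where the pseudocount is larger than its mean level and shrinks the change. It was -1.40 on log2(FPKM + 0.1), and -1.98 to -1.28 with each library left out. Among the limma fits, only log2(FPKM + 1) with the filter called Dll4. At a minimum of 10 counts in every library Dll4 was not tested. Dner, Notch4, Psen2, Neurl1b, Numbl and Dtx3l each missed the threshold in at least 1 limma fit, with Notch4 at an adjusted p of 0.085, 0.091 and 0.165, and Neurl1b also missed it with DESeq2 (0.090) and with library size only (0.065). The cause was not tested for these differences.

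No pairing by replicate number was seen. Deviations of same-numbered libraries correlated at 0.058, -0.026 and -0.004, within the range of -0.055 to 0.059 for libraries of unlike number. With 3 libraries per group, these correlations cannot tell whether samples shared a cell isolation. With the replicate number as a block, Dll4 was at -1.62, and 5 member rows, 7 pathway genes and 6 endothelial genes were called. Depth limits the unannotated row over Jag2 (5 to 16 counts per library), the annotated row of Heyl (8 to 24), Dll4 (9 to 56) and Hey1 (26 to 47).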
